A study of Mus musculus with 12 samples.

Results

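The replication-dependent histone genes of the mouse were examined in total RNA of the embryonic cerebral cortex. Members were all protein-coding genes whose GENCODE M21 symbol starts with Hist1h, Hist2h, Hist3h or Hist4h and that had at least 10 counts summed over the 12 libraries. Of 65 such genes listed in the files, 48 were members, out of 51912 genes listed in all. They comprised 5 H1, 10 H2A, 12 H2B, 9 H3 and 12 H4 genes. The Hist1 cluster on chromosome 13 held 41 of them, between positions 21715763 and 23764406 of GRCm38. The Hist2 cluster on chromosome 3 held 5, and Hist3 on chromosome 11 and Hist4 on chromosome 6 held 1 each.

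Each library came from the micro-dissected cerebral cortex of 1 embryo, taken at embryonic day 15.5, and all carry the batch label 1. Emx1-Cre Arid1a conditional mutants (6) were compared with 6 controls, whose alleles are not described further. Emx1-Cre recombines in dorsal telencephalic progenitors and the cells they give rise to, so cells of other origin in a dissected cortex keep Arid1a, which encodes a subunit of the BAF chromatin remodelling complex. Litter 1 gave 2 female mutants, 1 female control and 3 male controls, and litter 2 gave 3 female mutants, 1 male mutant, 1 female control and 1 male control. Genotype therefore overlapped in part with litter and with sex.

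Replication-dependent histone genes supply the histones that package newly made DNA, and their mRNAs accumulate in S phase and are degraded when replication stops. Core histones H2A, H2B, H3 and H4 form the nucleosome, and the linker histone H1 binds where DNA enters and leaves it. These mRNAs normally end in a stem-loop, bound by the stem-loop binding protein Slbp, in place of a poly-A tail, so that libraries of rRNA-depleted total RNA can hold them where poly-A selected libraries would lose most. In the embryonic cortex, cycling cells are the radial glia and intermediate progenitors, while projection neurons have left the cell cycle.

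The stem-loop was read from the M21 transcripts, in which it was found for 32 of 48 members. The remaining 16 have models in which the searched pattern (GG, 2 pyrimidines, CTTTT, any base but G, AG, 2 purines, CC) does not occur. One gene is shown for each of the 6 forms, because the forms divided by histone type. Capitals mark the 16 bases of the stem and loop, and lower case the 5 bases on each side, written as DNA.
Hist1h1e: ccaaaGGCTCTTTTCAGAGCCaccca
Hist1h2bb: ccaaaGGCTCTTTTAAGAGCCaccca
Hist2h2ac: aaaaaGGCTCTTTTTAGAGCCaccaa
Hist1h4d: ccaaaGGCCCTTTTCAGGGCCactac
Hist2h4: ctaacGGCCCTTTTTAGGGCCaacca
Hist1h4b: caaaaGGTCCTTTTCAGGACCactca
The form of Hist1h1e was present in 16 members, all of them H1, H2A, H2B or H3 genes, and that of Hist1h2bb in 5 further members of those types. The form of Hist2h2ac was in 1 member. The form of Hist1h4d was present in 6 members and those of Hist2h4 and Hist1h4b in 2 each, all of them H4 genes. In 14 of the 32, at least 1 annotated transcript ran more than 200 bases past the stem-loop, so annotated length is not the length of the processed mRNA.

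Promoters differed by histone type as well. In the 250 bases before the gene start (RefSeq, GRCm38.p6, 43 members matched), CCAAT or its complement ATTGG occurred in every one of the 5 H1, 10 H2A, 10 H2B and 7 H3 promoters and in 3 of 11 H4 promoters. It occurred in 33.85% of all 32851 promoters. TATAAA on either strand was in 24 of 43, against 12.37% of all promoters. AAACACA, an element known from H1 promoters, was in 4 of 5 H1 promoters, 1 of 10 H2A promoters and none of the H2B, H3 or H4 promoters, against 6.246% of all. ATTTGCAT, the octamer known from H2B promoters, was in 3 of 10 H2B and 5 of 10 H2A promoters, against 1.601% of all. H2A and H2B genes are often neighbours that start in opposite directions, so some of these windows overlap. The 180 bases before the start of 3 highly counted members are shown, with the 4 motifs in capitals on either strand.
Hist1h1e, chr13:23622559-23622738, minus strand: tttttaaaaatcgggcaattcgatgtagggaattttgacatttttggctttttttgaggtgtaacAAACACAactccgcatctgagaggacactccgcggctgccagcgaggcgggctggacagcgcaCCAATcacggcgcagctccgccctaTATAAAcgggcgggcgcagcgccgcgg
Hist1h2bb, chr13:23746554-23746733, plus strand: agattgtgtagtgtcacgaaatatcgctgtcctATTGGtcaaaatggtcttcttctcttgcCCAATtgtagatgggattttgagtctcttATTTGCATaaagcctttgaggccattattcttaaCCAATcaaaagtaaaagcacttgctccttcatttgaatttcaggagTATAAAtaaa
Hist1h4d, chr13:23581388-23581567, plus strand: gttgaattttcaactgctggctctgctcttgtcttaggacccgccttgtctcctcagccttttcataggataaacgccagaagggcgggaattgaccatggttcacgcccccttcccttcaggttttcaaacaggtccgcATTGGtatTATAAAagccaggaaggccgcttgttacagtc
Hist1h1e carried the H1 element, a CCAAT and a TATAAA, Hist1h2bb carried the octamer, and Hist1h4d carried 1 ATTGG beside a TATAAA. A match is a description of the letters and shows no binding.

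Gene counts per library ran from 643197 in mutant 1 to 3525121 in mutant 3, and the members took 0.0489 to 0.117% of them, which is 389 to 3142 counts per library. Between 38 and 48 members had a count in a library. Arid1a itself stood at 396 to 525 CPM (TMM-scaled counts relative to library size) in mutants and 464 to 575 CPM in controls, with a log2 difference of -0.30 ± 0.096 (SE) that was not called (edgeR quasi-likelihood test, adjusted p = 0.277). Counts of a whole gene do not show which exons were removed. Nothing in the labels pairs embryos across the groups.

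Members differed in how distinct their sequence is. The share of a gene's 50-base words found in no other annotated gene had a median of 51.8% over the members, from 0 in Hist2h3b to 100% in Hist1h1b, Hist1h1a and Hist2h2be. By this measure H1 genes were the most distinct, with a median of 97.7%, and H2A genes the least, with 38.6%. A word also counted as shared where a gene overlapping at the same locus held it, on either strand. For Hist2h2ab, Gm15444 on the opposite strand held 64.6% of the words. For Hist1h1e, Hist1h2be on the same strand held 23.8%. The share therefore does not separate copies from overlapping genes. Of the 17 cluster genes below the minimum, 10 had no count in any library, and 8 of these 10 had under 20% distinct words. Another annotated gene overlapped 8 of the 10, so copies and overlap are not separated for them. Those with under 20% included Hist1h2ao and Hist1h2ap, which share 93.5% and 93.1% of their words with each other. Hist1h2aa and Hist3h2a were also at 0, with 76.2% and 68.5% distinct words. A count of 0 allows up to 3 counts over all libraries, or 0.132 CPM, counting error only. Just below the minimum stood Hist1h2ad (8 counts), Hist1h3h (8) and Hist2h3c2 (7), and just above it Hist1h3b (11) and Hist2h3b (18). Levels of near-identical members are uncertain, since reads that fit several genes equally are not assigned to one in a count of unique alignments. The deposited files set alignments that were not unique apart from the gene counts. They made up 13.6% of the file total in control 1, the lowest share, to 23.0% in mutant 1, the highest.

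**Figure D1:**
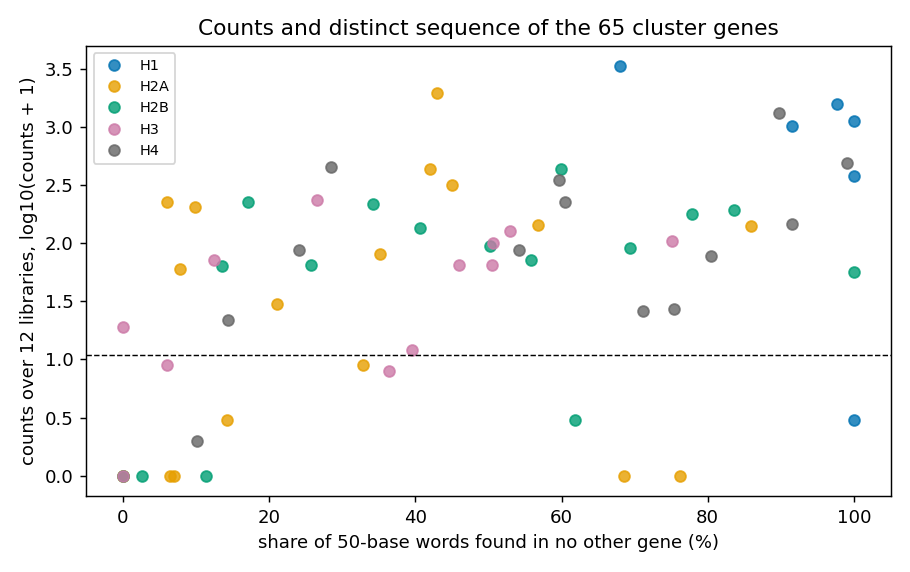
Counts over the 12 libraries (vertical axis, log10 of counts + 1) against the share of distinct 50-base words (horizontal axis, percent) for the 65 cluster genes, 1 point each, coloured by histone type; the dashed line is the minimum of 10 counts. Points at the bottom left are genes at 0 with few distinct words, and Hist1h2aa and Hist3h2a lie at the bottom right.

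H1 genes held the largest share of the members' level. Over the 12 libraries H1 took 43.4% ± 3.63 (SD) of the summed CPM, H2A 21.2% ± 2.44, H4 19.4% ± 1.66, H2B 11.0% ± 1.5 and H3 5.03% ± 1.03. The order H1 above all others held in every library, since the lowest H1 share (33.7%) exceeded the highest H2A share (26.7%). H2A and H4 overlapped, with H4 running from 16.2 to 21.3% and H2A from 17.9 to 26.7%. These are shares of counts, so a long transcript weighs more than a short one, and the types also differ in how much of their sequence is distinct. The Hist1 cluster took 92.3% ± 1.44 and Hist2 5.71% ± 1.18.

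A few genes carried most of the counts. Hist1h1e, the gene of histone H1.4 (chr13:23620629-23622558, minus strand, single exon), held 3307 of 16883 member counts, or 19.6%. Hist1h2ak followed with 1957, Hist1h1d with 1582, Hist1h4d with 1321, Hist1h1b with 1118 and Hist1h1c with 1013. Per kilobase of annotated exon the order changed. Hist1h2ak had 227 CPM per kb, Hist1h1e 78.0, Hist1h4k 67.1, Hist1h1b 65.8, Hist1h4d 50.7 and Hist1h1d 9.72. Measured over the length to the end of the stem-loop, Hist1h1e had 194 CPM per kb, Hist1h4d 157 and Hist1h1d 28.4, while the models of Hist1h2ak, Hist1h4k and Hist1h1b hold no stem-loop. The place of Hist1h1d depends on its annotated length of 7425 bases and on its annotated start. That start lies 1770 bases before the RefSeq start and leaves 2541 bases to the end of the stem-loop. The 28.4 CPM per kb therefore depends on which start is used. Hist1h2be overlaps Hist1h1e on the same strand, and all 10 H2A members overlap a gene annotated on the opposite strand, whose reads cannot be told apart without the strand setting of the counting.

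The H2A and H2B genes of a divergent pair had similar counts in some pairs and distant counts in others. Hist1h2ak had 1957 counts and its neighbour Hist1h2bn, whose start lies 296 bases away, 62. Hist2h2ac had 313 and Hist2h2be 55, at 239 bases. Hist1h2bf had 214 and Hist1h2ad 8. Closer counts stood in Hist1h2bl and Hist1h2ai (227 and 203), Hist1h2ah and Hist1h2bk (59 and 64), Hist1h2ae and Hist1h2bg (142 and 93), and Hist1h2ac and Hist1h2bc (139 and 89). Of the 12 pairs within 500 bases, 2 (Hist1h2bq with Hist1h2ao, and Hist1h2ap with Hist1h2br) were at 0 on both sides. Distinct sequence differed within pairs too: it was 43.0% in Hist1h2ak and 13.6% in Hist1h2bn.

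The summed level of the 48 members varied 2.41-fold between libraries. Mutants of litter 1 stood at 947 and 1073 CPM, and controls of litter 1 at 518 to 585 CPM, with no overlap. The share of all genes with no overlap in this litter was not computed. In litter 2 the 3 female mutants stood at 790, 870 and 938 CPM, the male mutant (mutant 4) at 500 CPM, the male control (control 5) at 693 CPM and the female control (control 6) at 1202 CPM. The lowest and highest of all 12 libraries were thus a mutant and a control of the same litter. In bulk tissue, fewer cycling cells and less histone RNA per cell cannot be told apart.

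**Figure D2:**
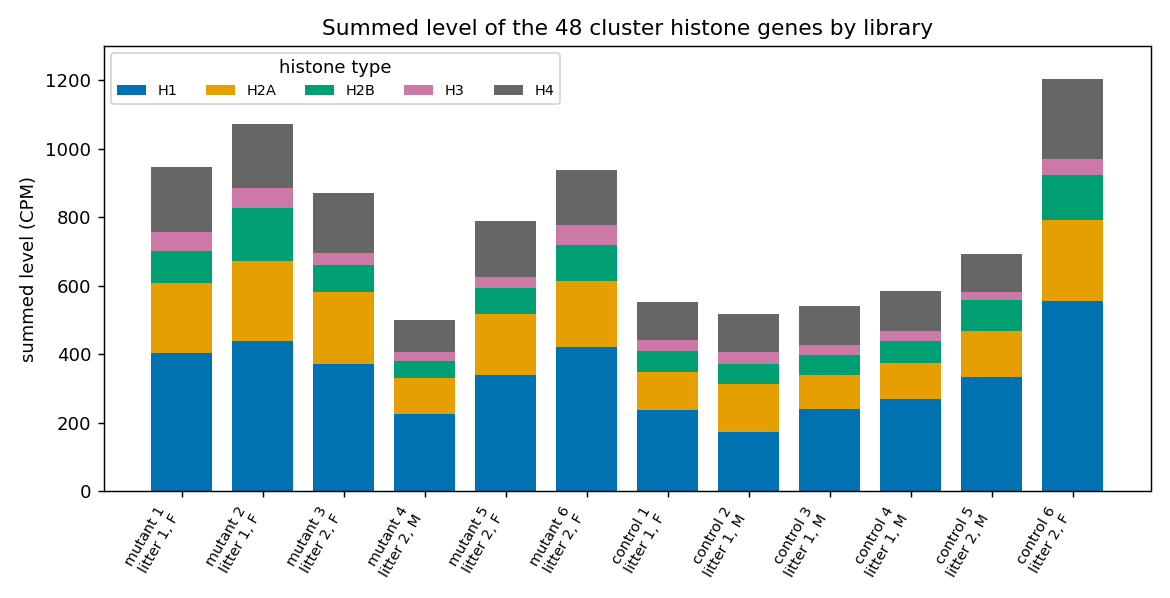
Summed level of the 48 members (vertical axis, CPM) in each of the 12 libraries (horizontal axis, with litter and sex), stacked by histone type. Mutants 1 and 2 of litter 1 stand above the 4 controls of litter 1, and control 6 of litter 2 is the highest bar at 1202 CPM.

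No member was called between mutants and controls. In the fit across all genes with litter and sex as terms, 27 members passed the filter on low counts, and 0 of these 27 had an adjusted p under 0.05 (edgeR quasi-likelihood test, Benjamini-Hochberg over 10678 genes), where 23 of all genes did (0.215%). DESeq2 also called 0 members (0.89% of genes). At an unadjusted p under 0.05 stood 1 member, against 8.78% of all genes. The log2 difference was above 0 for 15 members and below it for 12, with a median of 0.05, beside -0.00088 over all genes tested. This tally turned with single libraries and with the sex term. Without control 6, 23 of 25 tested members were above 0, with a median of 0.51, and 3 had an unadjusted p under 0.05, against 8.74% of genes. Without control 1, 7 of 26 were above 0, with a median of -0.30, and 5 had an unadjusted p under 0.05, against 8.26% of genes. Without the sex term, 22 of 27 were above 0, with a median of 0.31. The median over all genes stayed within 0.01 of 0 in these 3 fits, and no member was called in them. None of the 27 had all 6 mutants above or all 6 below the controls, a separation found for 1.26% of genes. The other 21 members, with 11 to 103 counts each, were not tested.

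The summed level had a mean of 853 ± 197 CPM over the 6 mutants and of 682 ± 262 CPM over the 6 controls (SD), a ratio of 1.25, and the difference of the means was smaller than the SD of either group. Without control 6 the ratio was 1.48. By type the ratio was 1.21 for H1, 1.36 for H2A, 1.21 for H2B, 1.36 for H3 and 1.21 for H4. Between the 5 female mutants and the 2 female controls it was 1.05. The male mutant stood at 500 CPM, below the 518 to 693 CPM of the 4 male controls.

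Among linker histones, Hist1h1e stood at 117 to 188 CPM in mutants (median 155) and 86.9 to 297 CPM in controls (median 103). The control range enclosed the mutant range, and the log2 difference was -0.26 ± 0.26 (SE, edgeR adjusted p = 0.866). Hist1h1d, the gene of H1.3, stood at 48.8 to 105 CPM in mutants and 31.1 to 87.4 CPM in controls, with 3 mutants above every control. Its log2 difference was 0.15 ± 0.22. Hist1h1b (H1.5) and Hist1h1a (H1.1) had log2 differences of -0.18 ± 0.23 and -0.33 ± 0.25.

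Of the H2A genes, Hist1h2ak stood at 57.8 to 133 CPM in mutants and 53.0 to 127 CPM in controls, with a log2 difference of 0.17 ± 0.18. Hist2h2ac stood at 12.5 to 24.0 CPM in mutants and 7.11 to 17.9 CPM in controls, with 0.50 ± 0.30. Hist1h2ab had 0.14 ± 0.50. Hist1h2ai had the lowest value of the 27, -0.70 ± 0.43, but only 9.88% of its words were distinct. Among H2B genes, Hist1h2bb had -0.64 ± 0.47, Hist1h2bf 0.48 ± 0.41, Hist1h2bl 0.21 ± 0.41 and Hist1h2bj 0.35 ± 0.54. None of these differences passed the test.

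Hist1h3e, a histone H3 gene, was the member with the largest positive difference. It stood at 18.2, 21.3, 11.6, 11.6, 7.28 and 19.5 CPM in mutants 1 to 6 and at 7.52, 9.18, 11.7, 7.09, 4.63 and 10.1 CPM in controls 1 to 6. In mutants 1, 2 and 6 it was above every control, and mutants 3, 4 and 5 lay within the control range. The log2 difference was 0.80 ± 0.33 (edgeR adjusted p = 0.469), but only 26.6% of its words were distinct, and 63.2% were shared with Hist1h3f. Hist1h3c, with only 125 counts over the 12 libraries, stood at 5.14 to 7.60 CPM in mutants and 3.39 to 5.98 CPM in controls. It had 5 of 6 mutants above every control and a log2 difference of 0.33 ± 0.32. The share of all genes with 5 of 6 mutants above every control was not computed. Hist1h3f had -0.40 ± 0.40, and Hist1h3d, with 103 counts, was not tested. Among H4 genes, Hist1h4d stood at 33.4 to 73.4 CPM in mutants and 31.8 to 116 CPM in controls, with -0.25 ± 0.28. Hist1h4k had -0.34 ± 0.28, Hist2h4 0.35 ± 0.26 and Hist4h4 0.43 ± 0.40. No histone type had its tested members all on 1 side of 0.

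**Figure D3:**
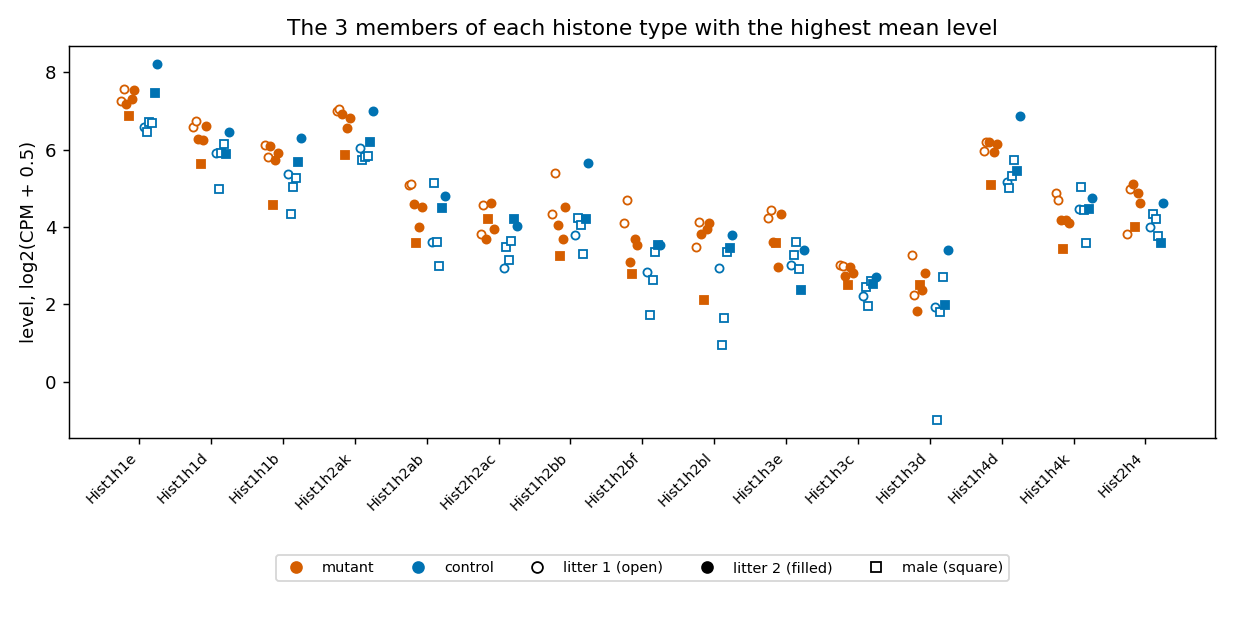
Level of the 3 members of each histone type with the highest mean (horizontal axis) in each library (vertical axis, log2 of CPM + 0.5), mutants in orange and controls in blue, open for litter 1 and filled for litter 2, squares for males. For Hist1h1e and Hist1h2ak both open orange points lie above all open blue points, and the filled blue circle, control 6, lies above the filled orange points. How many of all genes have these orders was not computed.

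With all libraries, the ratios of the 2 litters lay on opposite sides of 1. In litter 1 the summed level was 1.84 times higher in mutants than in controls, and in litter 2 the ratio was 0.82. Leaving out control 6 gave a ratio of 1.12 in litter 2, with control 5, a male, as the only control. The litter 2 mutants other than mutant 4 are female, so this ratio mixes genotype with sex. Mutant 4, the male mutant, stood at 500 CPM, below the 693 CPM of control 5. The part of sex in the ratio of 1.12 was not tested. For Hist1h1e, mutants of litter 1 stood at 153 and 188 CPM and controls at 86.9, 95.7, 102 and 105 CPM. In litter 2, mutants stood at 117, 144, 157 and 184 CPM and controls at 175 and 297 CPM. Hist1h2ak stood at 126 and 133 CPM in litter 1 mutants and 53.0 to 64.8 CPM in litter 1 controls. In litter 2 it stood at 57.8 to 120 CPM in mutants and 72.3 and 127 CPM in controls.

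Tested directly, the difference of the genotype effect between litters was called for no member by edgeR and for 1 by DESeq2. The interaction of litter and genotype had 0 of 27 members and 0 of all genes called by edgeR (0.0%). DESeq2 called Hist1h1e (adjusted p = 0.0477), 1 of the 6 genes it called in all (0.0562%). At an unadjusted p under 0.05 stood 8 members, all negative, against 7.27% of all genes. The interaction was below 0 for 24 of 27 members, with a median of -0.80, beside -0.01 over all genes tested. Several other lists also lay mostly below 0. These were 30 of 34 genes of G2 and mitosis (median -0.39), 35 of 45 of S phase (-0.38) and 11 of 11 histone variants (-0.39). Intermediate progenitor genes had 8 of 8 below 0 (-0.74) and radial glia genes 11 of 12 (-0.48). The other RNAs that end without a poly-A tail had 5 of 5 below 0 (-0.73). Endothelial genes had 5 of 5 (-0.55) and chromatin partners of H1 and H3 had 8 of 10 (-0.33). Projection neuron genes had 4 of 10 below 0 (0.21), and ganglionic eminence and striatum genes 4 of 10 (0.34). Hist1h1e had -1.27 ± 0.24 (SE, edgeR adjusted p = 0.229), Hist1h2ak -0.90 ± 0.23 and Hist1h2bb -2.03 ± 0.57. The H2B genes had the lowest median, -1.68, over 6 tested members. Members vary together across libraries, so the 24 are not 24 separate observations. Without control 6 the median was -0.59 and without control 1 it was -0.38.

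Fits within each litter gave these values. Litter 1 alone, with a sex term, rests the genotype effect on 2 mutants and 1 female control. There 28 of 31 tested members were above 0 with a median of 0.95, 0 were called (0.0446% of genes were), and 8 had an unadjusted p under 0.05, against 7.64% of genes. DESeq2 was not run within litters. Without the sex term, which brings in the 3 male controls, 2 members were called as higher in mutants, where 0.527% of genes were called. They were Hist1h1e (0.81 ± 0.14, adjusted p = 0.024) and Hist1h2ak (1.16 ± 0.14, adjusted p = 0.0117). Both mutants of litter 1 are female, so against the male controls genotype cannot be told apart from sex. Over all libraries the male minus female difference was -0.59 ± 0.26 for Hist1h1e and -0.76 ± 0.18 for Hist1h2ak, neither of them called. In litter 2 alone, with a sex term, Hist1h1e (-0.78 ± 0.13, adjusted p = 0.0221) and Hist1h2bb (-1.51 ± 0.26, adjusted p = 0.0224) were called as lower, where 0.574% of genes were called, and 7 of 32 members had an unadjusted p under 0.05, against 9.52%. Without the sex term in litter 2, 0 members were called, against 0.359% of genes. Without control 6, no gene at all was called in litter 2 (0.0%). With the sex term, that fit sets mutant 4 alone against control 5, so its values compare 2 male libraries and bear on no condition. All of these are edgeR fits, and those of litter 2 hold 1 or 2 controls.

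Values that move with this contrast were as follows. In litter 1 the mutants were the shallowest and the third shallowest libraries of the study, with 643197 and 924066 gene counts, against 1476478 to 2815042 in its controls. The share of alignments that were not unique was 23.0 and 19.9% in those mutants and 13.6 to 15.8% in those controls, and it was 19.6% in control 6 against 17.0% in control 5. With all libraries thinned to equal depth, 12 members were tested, and their interaction had a median of -0.78 with 10 below 0. The part of the share of alignments that were not unique was not tested.

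Between litters, no member was called either. For litter 2 against litter 1, 0 of 27 members were called by edgeR and 0 by DESeq2, where edgeR called 140 of all genes (1.31%) and DESeq2 250 (2.34%). At an unadjusted p under 0.05 stood 2 members, against 15.4% of genes. The log2 difference was above 0 for 18 of 27 with a median of 0.14, beside -0.01 over all genes. Hist1h2ai had 1.24 (adjusted p = 0.172) and Hist1h1e 0.55 ± 0.23 (adjusted p = 0.288), and Hist4h4 had 0.50. At the other end stood Hist1h3e with -0.51, Hist1h2bj with -0.42 and Hist1h3f with -0.34. The summed level was 703 ± 242 CPM in litter 1 and 832 ± 237 CPM in litter 2 (SD, n = 6 each), and the ranges overlapped. The median of the litter differences was -0.04 without control 6 and -0.11 without control 1.

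Most females stood above the males. The summed level was 553 to 1202 CPM in 7 females and 500 to 693 CPM in 5 males, and 6 of the 7 females stood above every male. The exception was control 1, the female control of litter 1, at 553 CPM. In the fit, the male minus female difference was below 0 for 24 of 27 members, with a median of -0.50, beside -0.0042 over all genes. No member was called by edgeR or DESeq2 (0.0187% of genes by DESeq2). The 1 gene called by edgeR was Xist (0.00937% of genes). At an unadjusted p under 0.05 stood 9 members, all lower in males, against 6.95% of genes. They were Hist1h2ak (-0.76 ± 0.18, adjusted p = 0.607), Hist1h1b (-0.83 ± 0.23), Hist1h1a, Hist1h4a, Hist1h4d, Hist1h3f, Hist1h2ac, Hist1h1d and Hist1h1e, named after their values were seen. All 5 H1 genes were below 0, from -0.83 to -0.50. Without control 6, 2 of 25 tested members had an unadjusted p under 0.05, against 5.52% of genes, and the median was -0.16. Without control 1, Hist1h2ak and Hist1h4d were called as lower in males, where 0.162% of genes were called, and the median was -0.93. Most genes of the cell cycle lists also had values below 0 for males. The summed level in females over that in males was 1.24 for the S phase list, with 38 of 45 tested genes below 0 and 10 at an unadjusted p under 0.05. For the G2 and mitosis list it was 1.37, with 32 of 34 below 0 and 10 at an unadjusted p under 0.05, and for the members it was 1.60. Lists outside the cell cycle lay below 0 for males too. These were 12 of 12 radial glia genes (median -0.40), 11 of 11 histone variants (-0.24) and 10 of 10 chromatin partners (-0.20). Histone chaperones had 21 of 24 below 0 (-0.17) and other RNAs without a poly-A tail 5 of 5 (-0.24). Projection neuron genes had 3 of 10 (0.12) and ganglionic eminence and striatum genes 4 of 10 (0.18). No gene of these lists was called for sex, and their part in the histone values was not tested. Since 4 of the 5 males were controls and 5 of the 7 females were mutants, the sex term rests on few contrasts within a genotype.

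**Figure D4:**
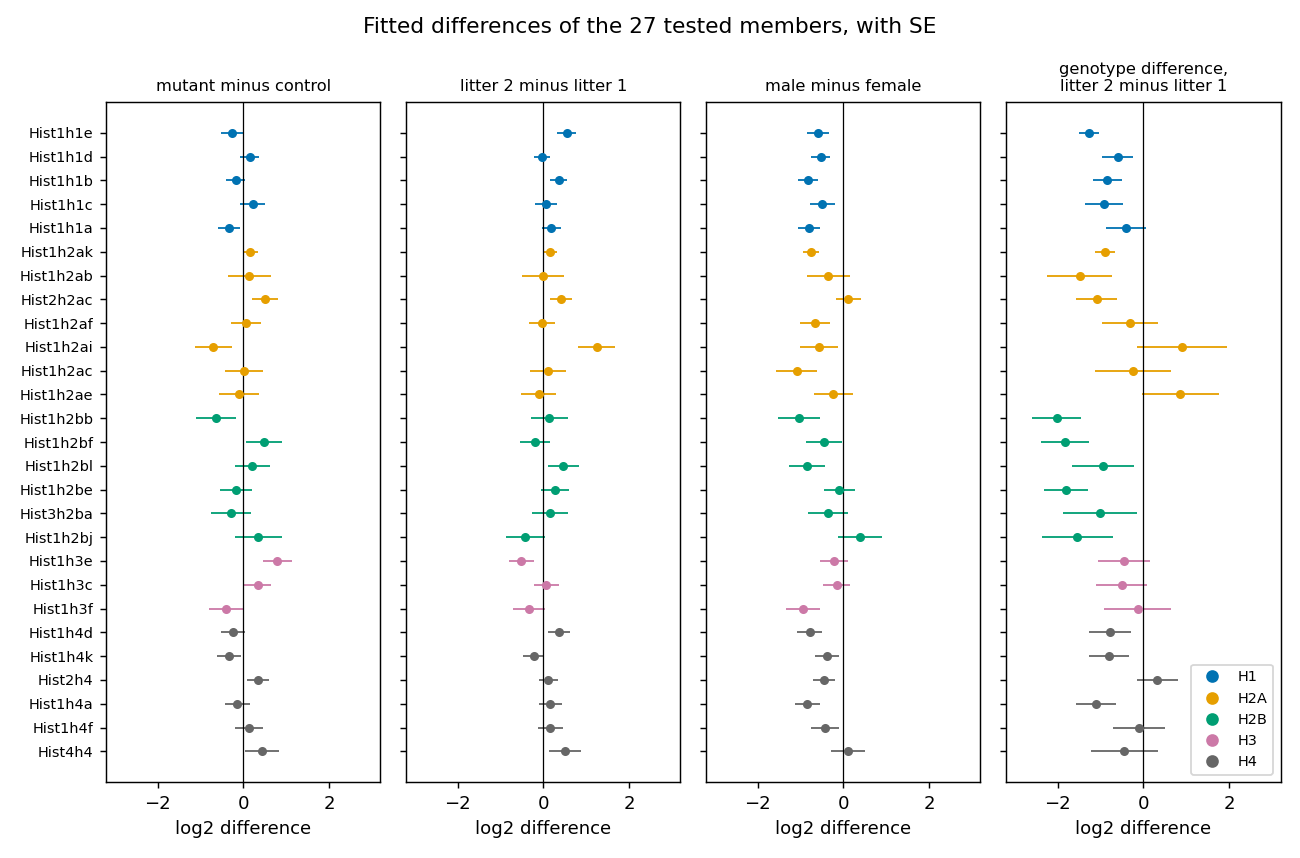
Fitted log2 differences (horizontal axes) with SE for the 27 tested members (vertical axis, coloured by histone type) for genotype, litter, sex and the change of the genotype difference between litters. Genotype and litter values lie on both sides of 0, and 24 of 27 sex values and 24 of 27 interaction values lie below it.

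The abundant members varied together across libraries. Among the 6 members with at least 1000 counts, Pearson's r of log2(CPM + 0.5) over the 12 libraries was 0.70 to 0.90 over 15 pairs, with a median of 0.86. The 10 other tested genes most like the members' summed level (log2, same 12 libraries) were Sf3b2 (r = 0.93), Rad21 (0.93), Hnrnpab (0.93), Ranbp1 (0.91), Mphosph10 (0.91), Cdc37 (0.91), Ncaph (0.90), Peg12 (0.90), Rrm1 (0.90) and Dlgap5 (0.90). Rad21 encodes a cohesin subunit, Ncaph a condensin subunit, Rrm1 a subunit of ribonucleotide reductase and Dlgap5 a spindle protein. These genes are the top of 10651, and all values share libraries and depth, so the coefficients are descriptions.

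Several lists varied with the members across libraries. The median r to the members' sum was 0.69 over 34 tested genes of G2 and mitosis, 0.67 over 11 histone variants outside the clusters, 0.58 over 45 genes of S phase and DNA replication, 0.56 over 10 chromatin partners of H1 and H3, 0.52 over 8 intermediate progenitor markers and 0.49 over 24 histone chaperones. It was 0.48 over 5 other RNAs that end without a poly-A tail and 0.45 over 12 radial glia genes. Ganglionic eminence and striatum genes (10) had 0.35 and genes of histone mRNA 3′ end processing and turnover (23) had 0.33. It was -0.21 over 10 projection neuron genes and 0.01 over all other tested genes. The S phase list summed to 1340 and 1404 CPM in litter 1 mutants and 1032 to 1150 CPM in litter 1 controls. In litter 2 it summed to 1120 CPM in mutant 4, 1456 to 1559 CPM in the other mutants, and 1443 and 1534 CPM in the controls. The ratio of mutants to controls in the S phase list was 1.27 in litter 1 and 0.95 in litter 2, and in the G2 and mitosis list 1.35 and 0.86. Mki67, a marker of cycling cells, stood at 135 to 307 CPM in mutants and 84.1 to 406 CPM in controls, and its highest value was that of control 6. Top2a, a topoisomerase of dividing cells, stood at 66.8 to 154 CPM in mutants and 89.7 to 164 CPM in controls, lowest in mutant 4 and highest in control 6. The part of the share of cycling cells in the histone differences was not tested.

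**Figure D5:**
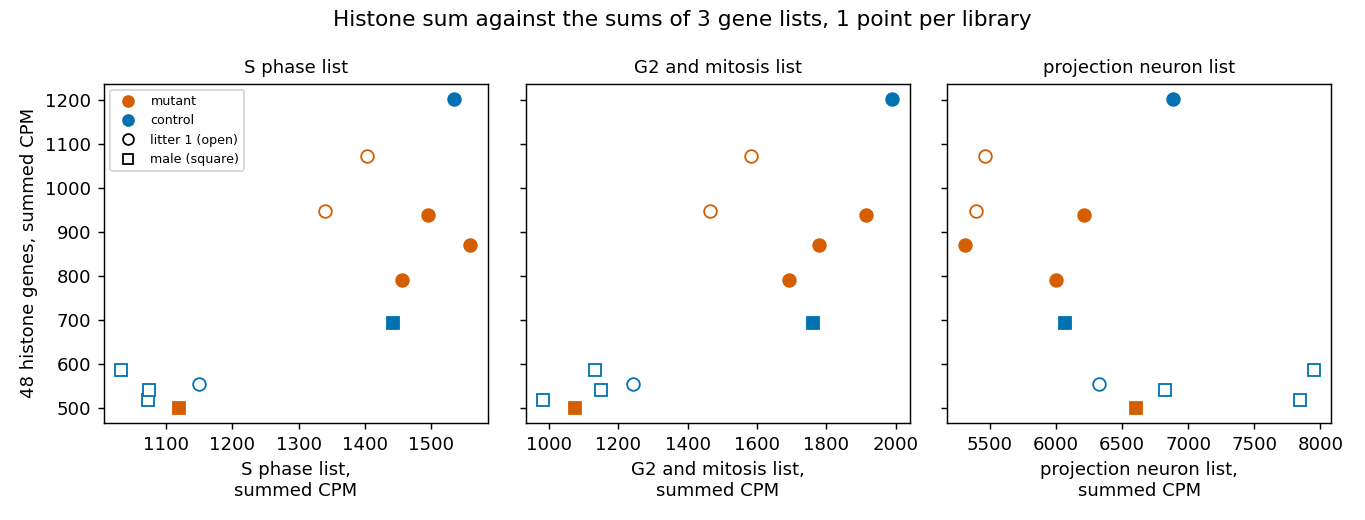
Summed level of the 48 members (vertical axis, CPM) against the summed level of the S phase, G2 and mitosis, and projection neuron lists (horizontal axes, CPM), 1 point per library, mutants in orange, controls in blue, open for litter 1, squares for males. Control 6 is highest for the members and for G2 and mitosis, and the males of litter 1 and mutant 4 are low for both.

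No gene of any of the 15 related lists was called for genotype, sex or interaction. At an unadjusted p under 0.05 for genotype stood at most 4 tested genes of a list, those 4 in radial glia (12 tested), against 8.78% of all genes. For litter the same count was 17 of 45 in S phase, 18 of 34 in G2 and mitosis, 8 of 24 histone chaperones and 6 of 12 in radial glia, against 15.4% of all genes. Values were higher in litter 2 for 41 of 45 S phase genes (median 0.32) and 32 of 34 of G2 and mitosis (0.39). They were higher for 15 of 24 histone chaperones (0.09) and 5 of 12 radial glia genes (-0.15), beside 18 of 27 members (0.14). The following calls are those of edgeR for litter. Of 45 S phase genes, E2f2 was called as higher in litter 2 (log2 difference 1.65), and of 34 genes of G2 and mitosis, Hmgb2 (1.00), Anln (0.74) and Cenpe (0.65) were. Of 10 chromatin partners of H1 and H3, Hmga2 was higher (1.46). Of 12 radial glia genes, Tnc was lower (-1.95). Of 10 projection neuron genes, Tbr1 (0.74) and Bcl11b (0.68) were higher and Stmn2 lower (-0.53). Of 3 tested red blood cell genes, Hba-a2 (-1.92) and Hbb-bs (-1.87) were lower.

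The machinery that makes and stores histones showed no called gene in any term. Of 23 tested genes of histone mRNA 3′ end processing and turnover, 0 were called for genotype and 1 had an unadjusted p under 0.05, with a median log2 difference of 0.01. Slbp stood at 10.6 to 23.5 CPM in mutants and 11.7 to 25.3 CPM in controls (-0.28 ± 0.23). Npat, the coactivator of histone gene transcription, stood at 33.4 to 57.6 CPM and 46.4 to 68.5 CPM (-0.19 ± 0.15). Of 24 histone chaperone genes, 1 had an unadjusted p under 0.05, with a median of -0.04. Of 11 histone variant genes outside the clusters, which are made through the cell cycle and have poly-A tails, 1 had an unadjusted p under 0.05, with a median of -0.04. Their summed level ran from 720 to 1072 CPM, a narrower range than the 500 to 1202 CPM of the members. The other RNAs that end without a poly-A tail, such as Malat1, Rpph1 and Rmrp, summed to 4797 to 5315 CPM in mutants and 4115 to 6310 CPM in controls, and none of 5 tested was called.

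Markers of the cell types in the dissection were as follows. Intermediate progenitor markers (8 tested) summed to 534 to 722 CPM in mutants and 406 to 651 CPM in controls. Radial glia markers summed to 1173 to 2135 CPM in mutants and 1340 to 2218 CPM in controls, and projection neuron markers to 5311 to 6604 CPM and 6070 to 7951 CPM. Genes of the ganglionic eminence and striatum summed to 2321 to 4993 CPM in mutants and 1809 to 4766 CPM in controls. All 10 tested were above 0 for genotype, with a median log2 difference of 0.68, and 0 of them had an unadjusted p under 0.05. Endothelial genes (5 tested) summed to 64.2 to 106 CPM, meningeal and pericyte genes (2 tested) to 22.5 to 60.7 CPM, red blood cell genes to 10.4 to 66.8 CPM and microglial genes (0 tested) to 12.2 to 24.5 CPM. Their part in the histone levels was not tested.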

How the data were processed

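Total RNA was depleted of ribosomal RNA and made into ClickSeq libraries, in which random-primed reverse transcription stops at azido-nucleotides and an adaptor is joined by click chemistry, per the labels' protocols. The submitters' processing notes name STAR 2.5.2a and the build mm10, HTSeq 0.6.1p1, UMI-tools 0.5.3 and cutadapt 1.13. The counting mode, the strand setting, the annotation release and the order of steps were not given in the sources used here. Raw counts per Ensembl gene were deposited by the authors, 1 library per file, without normalization. The 5 closing lines of each file that name no gene, 20.7 to 31.6% of its total, were left out.

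Symbols, coordinates and gene types came from GENCODE M21 (51719 of 51912 identifiers matched). Genes were kept by filterByExpr (minimum count 10, genotype as group), which left 10678 genes and 27 members. After TMM scaling, a robust quasi-likelihood model with litter, sex and genotype (8 residual degrees of freedom) was fitted with edgeR 4.0.16 in R 4.3.3. The interaction was tested in a model with that term added. A gene was called where its p, adjusted by Benjamini-Hochberg over all genes tested, was under 0.05. The SE is the size of the log2 difference over the square root of F. DESeq2 1.42.0 was the other test. On simulated data with known changes in the genotype comparison (10526 genes), 74% of genes changed by 1 on the log2 scale and 91% of those changed by 2 were recovered. There were 8 false calls. The changed genes were drawn only from genes above a minimum mean level, and no litter or sex effect was simulated. These rates therefore do not cover sparser genes.

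The members, the 15 gene lists and the rule for named genes were chosen with earlier results of these data known. The rule names Hist1h1e, Arid1a, Slbp, Npat, Mki67 and Top2a, the 3 most abundant members per type, called members, those with the largest genotype (5) and litter (3) differences each way, members nearest the minimum, up to 4 genes of each list and the 10 genes most like the members' sum. Alternatives were another scaling, filter, test and set of terms, thinning to equal depth, members left out of library sizes, and libraries left out. The labels show embryos as separate samples, and p-values measure the spread between them.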

Additional observations from a re-analysis of the deposited data

Results flagged for a closer look

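Single libraries stood far from the rest of their group in 9 of 42 groups of 6 values checked (summed levels and the 15 most abundant members by type). Chance alone sets about 1 in 20 such groups apart, and the values are not independent, since members vary together. Control 6, the female control of litter 2, was high among controls for all members summed (1202 CPM), for H2A summed (236 CPM), for H4 summed (233 CPM), and for Hist1h2ak (127 CPM), Hist1h2bb (49.7 CPM) and Hist1h4d (116 CPM). Mutant 4, the male mutant, was low among mutants for H4 summed (93.8 CPM), Hist1h1b (23.1 CPM) and Hist1h4d (33.4 CPM).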

How the results depend on the processing

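For genotype, 0 members were called under every setting run, leaving out any 1 library included, except in litter 2 alone (2) and litter 1 alone without the sex term (2). Litter called 0 members throughout, sex 0 to 2 with 1 library left out, and the interaction 1 by DESeq2. The summed ratio of mutants to controls, 1.25 over all libraries, was 1.83 in litter 1 alone, 0.82 in litter 2 alone, 1.12 in litter 2 without control 6 and 1.06 in females alone, and it ran from 1.19 to 1.48 with 1 library left out. All genes called for genotype numbered 45 with no filter beyond 10 counts, 95 by DESeq2, 77 without the sex term, 141 with genotype alone, 12 after thinning, 0 without mutants 1 and 4, 64 in litter 2 alone, 5 in litter 1 alone, 44 in females alone, 59 and 40 in litters 1 and 2 without the sex term, and 0 in litter 2 without control 6, with 6 to 55 when 1 library was left out. For litter they numbered 250 by DESeq2, 25 after thinning, 45 without mutants 1 and 4, 264 with litter alone and 27 to 212 with 1 library left out. For sex they numbered 5 with no filter, 2 by DESeq2, 2 after thinning, 5 without mutants 1 and 4 and 1 to 17 with 1 library left out. For the interaction they numbered 6 by DESeq2 and 0 to 1 with 1 library left out. Genotype differences of named members that were not called over all libraries changed sign as follows, and the cause was not tested. Among the values below, that of Hist1h1e in litter 1 alone without the sex term was called in its own fit. Without the sex term, Hist1h1e was 0.021, Hist1h4d 0.097, Hist1h1b 0.21, Hist1h1a 0.026 and Hist1h3f 0.019. With genotype alone, Hist1h1e was 0.13, Hist1h4d 0.24, Hist1h1b 0.35, Hist1h1a 0.15, Hist1h2ai 0.057 and Hist1h2bj -0.0407. Hist1h1b was 0.22 after thinning and 0.00629 in females alone. In litter 2 alone, Hist1h2ak was -0.24, Hist1h1d -0.14, Hist1h2ab -0.52, Hist1h2bl -0.14, Hist1h2bf -0.27 and Hist1h2bj -0.20. Without the sex term there, Hist1h2ak was -0.012, Hist1h2ab -0.36, Hist1h2bf -0.18 and Hist1h2bj -0.50. In litter 2 without control 6, which sets mutant 4 alone against control 5, Hist1h2ak was -0.32, Hist1h1d -0.27, Hist1h2ab -0.92, Hist1h2bl -1.42, Hist1h2bf -0.77, Hist1h2ai 0.56, Hist1h2bj -1.42 and Hist1h3c -0.018. In litter 1 alone, Hist1h1e was 0.84, Hist1h4d 0.95, Hist1h1b 0.57, Hist1h4k 0.31, Hist1h2bb 1.23 and Hist1h1a 0.36. Without the sex term there, Hist1h1e was 0.81, Hist1h4d 0.75, Hist1h1b 0.87, Hist1h4k 0.36, Hist1h2bb 1.16, Hist1h1a 0.48 and Hist1h3f 0.31. With 1 library left out, Hist1h1e ran from -0.53 to 0.25, Hist1h2ak from -0.097 to 0.51, Hist1h1d from -0.057 to 0.37, Hist1h4d from -0.64 to 0.46, Hist1h1b from -0.43 to 0.0017, Hist1h2bb from -1.23 to 0.52, Hist1h2ab from -0.29 to 0.64, Hist1h1a from -0.65 to 0.018, Hist1h2bl from -0.0272 to 0.44, Hist1h2ai from -1.03 to 0.14 and Hist1h2bj from -0.047 to 0.69. The litter difference of Hist1h2bj ran from -1.03 to 0.00703. The fits within a litter without the sex term or without control 6, and all alternatives for sex and interaction, were chosen after the data were seen. No paired analysis was possible because replicate numbers do not pair embryos. The 4 shallowest libraries were mutants, and 21 members were too sparse to test.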
